A study of Mus musculus with 7 samples.

Results

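The genes described here are 37 genes of the interferon response, taken by their symbols from the 31053 genes counted in every library, and all 37 were found. Single tumor cells were profiled from 7 mouse mammary tumors by droplet sequencing of the 3′ ends of transcripts, which counts unique molecular identifiers (UMIs), that is, captured RNA molecules. BRCA1-null tumors (replicates A and B) arose spontaneously in K14-Cre mice with floxed Trp53 (Trp53 F/F) and Brca1 (Brca1 F/F), in which Cre driven by the keratin 14 promoter removes both tumor suppressors from cells that use this promoter or descend from such cells. Neu tumors (A and B) arose spontaneously in mice with the Neu oncogene under the mammary MMTV promoter. PyMT tumors (A and B) were transplants of FF99WT, a line from an MMTV-PyMT tumor with floxed FIP200 alleles and no Cre, so both PyMT libraries descend from 1 line. These 6 tumors were of the FVB/NJ strain. The 4T1 tumor, with 1 library, was a transplant of the BALB/C line 4T1 transduced with GFP. The mouse of Neu A also carried floxed FIP200 alleles, according to the study. The mice were adult and untreated, tumors were taken at about 1000 mm3, and cells positive for CD24 and negative for Ter119, CD31 and CD45 were sorted, so red cells, endothelium and leukocytes were gated out.

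Cells were kept with at least 1000 UMIs, at least 500 genes and under 20% mitochondrial UMIs, which left 12168 of 13745 barcodes. BRCA1-null A stood apart with 245 cells, against 1751 to 2308 in the other libraries, and library totals ran from 5578911 to 37693300 UMIs. Cells with markers of leukocytes, despite the sort, were 21.6% of BRCA1-null A, 2.89% of BRCA1-null B, 2.80% of 4T1 and at most 0.910% elsewhere. The study sequenced the 2 replicates of each type in separate batches, so the replicate letters appear to mark the sequencing batch, though the labels name none. A total of 118 barcode sequences occurred in more than 1 library, in 213 cells. The epithelial marker Epcam gave a UMI in at least 99.4% of the cells of each PyMT and Neu library, in 90.7% of 4T1 cells, in 74.4% of BRCA1-null B and in 28.8% of BRCA1-null A, with each cell thinned to 3000 UMIs. Brca1 read 9.68 and 2.81 CPM (UMIs scaled to a library total of 1000000) in the BRCA1-null libraries and 0.276 to 1.35 in the PyMT tumors and Neu, but 3′ counts need not fall in a deleted part and so do not check the label. Erbb2, the mouse counterpart of the Neu oncogene, read 25.7 and 19.6 in Neu A and B and 3.23 to 15.1 in the other libraries.

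Type I interferons are secreted when cells sense foreign or misplaced nucleic acid. They signal through the receptor of Ifnar1 and Ifnar2 to factors that bind the interferon-stimulated response element (ISRE). Interferon gamma signals through Ifngr1 and Ifngr2 to factors that bind the gamma-activated site (GAS). The induced genes encode antiviral effectors, sensors, chemokines that draw T cells, and regulators such as Socs1 and Usp18 that damp the same pathway.

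The ISRE and GAS are short enough to be looked for by their letters. The core searched for the ISRE was GAAANNGAAA and that for the GAS was TTCNNNGAA, on both strands, in RefSeq promoters of GRCm38.p6 that run from 250 bases before to 50 after a transcription start. Promoters were matched for 31 of the 37 genes, the others being Dhx58, Iigp1, Parp14, Rtp4, Usp18 and Zbp1. The ISRE core was present in 19 of the 31 genes (61.3%), against 3.99% of the 27025 genes in the table. The GAS core was present in 8 of 31 (25.8%), against 9.55% of all genes, and 5 of the 31 had both. Of 21 matched genes for interferon ligands, receptors, kinases and sensing, 1 had the ISRE core and 5 had the GAS core. A match of letters describes the window and does not show a site in use.

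The 250 bases before the start are shown for 6 genes to which the results below return, with the ISRE cores (Irf1, the GAS core) in capitals. They show how the cores sit together or alone. Isg15 lies at chr4:156200819-156201068 on the minus strand, Ifit3 at chr19:34583279-34583528 on the plus strand, Cxcl10 at chr5:92348890-92349139 on the minus strand, Socs1 at chr16:10785537-10785786 on the minus strand, Gbp2 at chr3:142620413-142620662 on the plus strand and Irf1 at chr11:53769764-53770013 on the plus strand.
Isg15: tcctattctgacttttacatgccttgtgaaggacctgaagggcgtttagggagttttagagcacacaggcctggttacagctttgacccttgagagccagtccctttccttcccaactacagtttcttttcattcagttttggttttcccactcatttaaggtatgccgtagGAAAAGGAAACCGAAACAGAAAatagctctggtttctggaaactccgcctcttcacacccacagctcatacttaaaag
Ifit3: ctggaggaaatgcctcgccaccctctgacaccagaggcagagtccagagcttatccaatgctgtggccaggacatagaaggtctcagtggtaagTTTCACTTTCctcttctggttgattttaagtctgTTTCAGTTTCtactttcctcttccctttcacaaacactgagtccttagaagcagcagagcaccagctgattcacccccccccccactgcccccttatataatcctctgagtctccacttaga
Cxcl10: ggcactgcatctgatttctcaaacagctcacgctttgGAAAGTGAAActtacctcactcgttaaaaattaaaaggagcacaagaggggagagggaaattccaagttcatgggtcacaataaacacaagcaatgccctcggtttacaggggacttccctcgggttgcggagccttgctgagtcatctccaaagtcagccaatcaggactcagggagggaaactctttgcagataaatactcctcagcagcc
Socs1: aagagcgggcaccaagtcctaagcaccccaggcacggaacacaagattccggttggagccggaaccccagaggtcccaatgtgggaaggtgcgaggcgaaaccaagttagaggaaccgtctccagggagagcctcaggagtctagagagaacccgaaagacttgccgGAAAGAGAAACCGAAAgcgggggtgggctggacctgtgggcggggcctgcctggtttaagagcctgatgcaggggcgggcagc
Gbp2: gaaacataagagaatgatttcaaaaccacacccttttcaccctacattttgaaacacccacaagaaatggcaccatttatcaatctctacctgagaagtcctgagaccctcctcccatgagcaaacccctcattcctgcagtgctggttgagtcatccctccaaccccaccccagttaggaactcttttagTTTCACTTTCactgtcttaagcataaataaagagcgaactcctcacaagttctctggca
Irf1: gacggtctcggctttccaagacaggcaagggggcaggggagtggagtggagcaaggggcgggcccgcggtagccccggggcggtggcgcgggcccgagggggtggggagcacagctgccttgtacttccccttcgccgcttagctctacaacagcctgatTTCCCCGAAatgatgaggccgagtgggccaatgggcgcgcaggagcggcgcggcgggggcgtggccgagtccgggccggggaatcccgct
In Isg15, 3 overlapping cores filled positions -78 to -57 counted from the start site, and in Socs1 2 overlapping cores filled -83 to -68. Ifit3 had 2 separate cores, at -156 to -147 and -122 to -113. Cxcl10 had a lone core at -213 to -204 and Gbp2 a lone core at -59 to -50. Irf1 had the GAS core at -90 to -82 and no ISRE core in its window.

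Levels are given as CPM, that is, UMIs of a gene scaled to the UMIs of all kept cells of a library. Summed over the 37 genes, the level was 1143 and 1249.8 CPM in BRCA1-null A and B, 1146 and 2402 in PyMT A and B, 952 and 486 in Neu A and B, and 3958 in 4T1. The 2 tumors of a type could thus differ as much as the types did. PyMT B exceeded PyMT A in 34 of 37 genes, with a median log2 ratio of 1.018 against 0.04 over all 10850 genes with enough counts. Neu A exceeded Neu B in 33 of 37 (median log2 ratio of B over A -0.94, against -0.19 over 11335 genes). Over these sets of all genes, B exceeded A in 53.3% in PyMT and in 34.8% in Neu. Among the 6 libraries outside 4T1, 24 of 37 genes peaked in PyMT B, and 16 of 37 were lowest in Neu B. The 24 and 16 were not counted over all genes, so they have no background. A lower level over a library cannot be split here into fewer cells with the RNA and less RNA per cell, other than through the cell shares given further on.

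**Figure D1:**
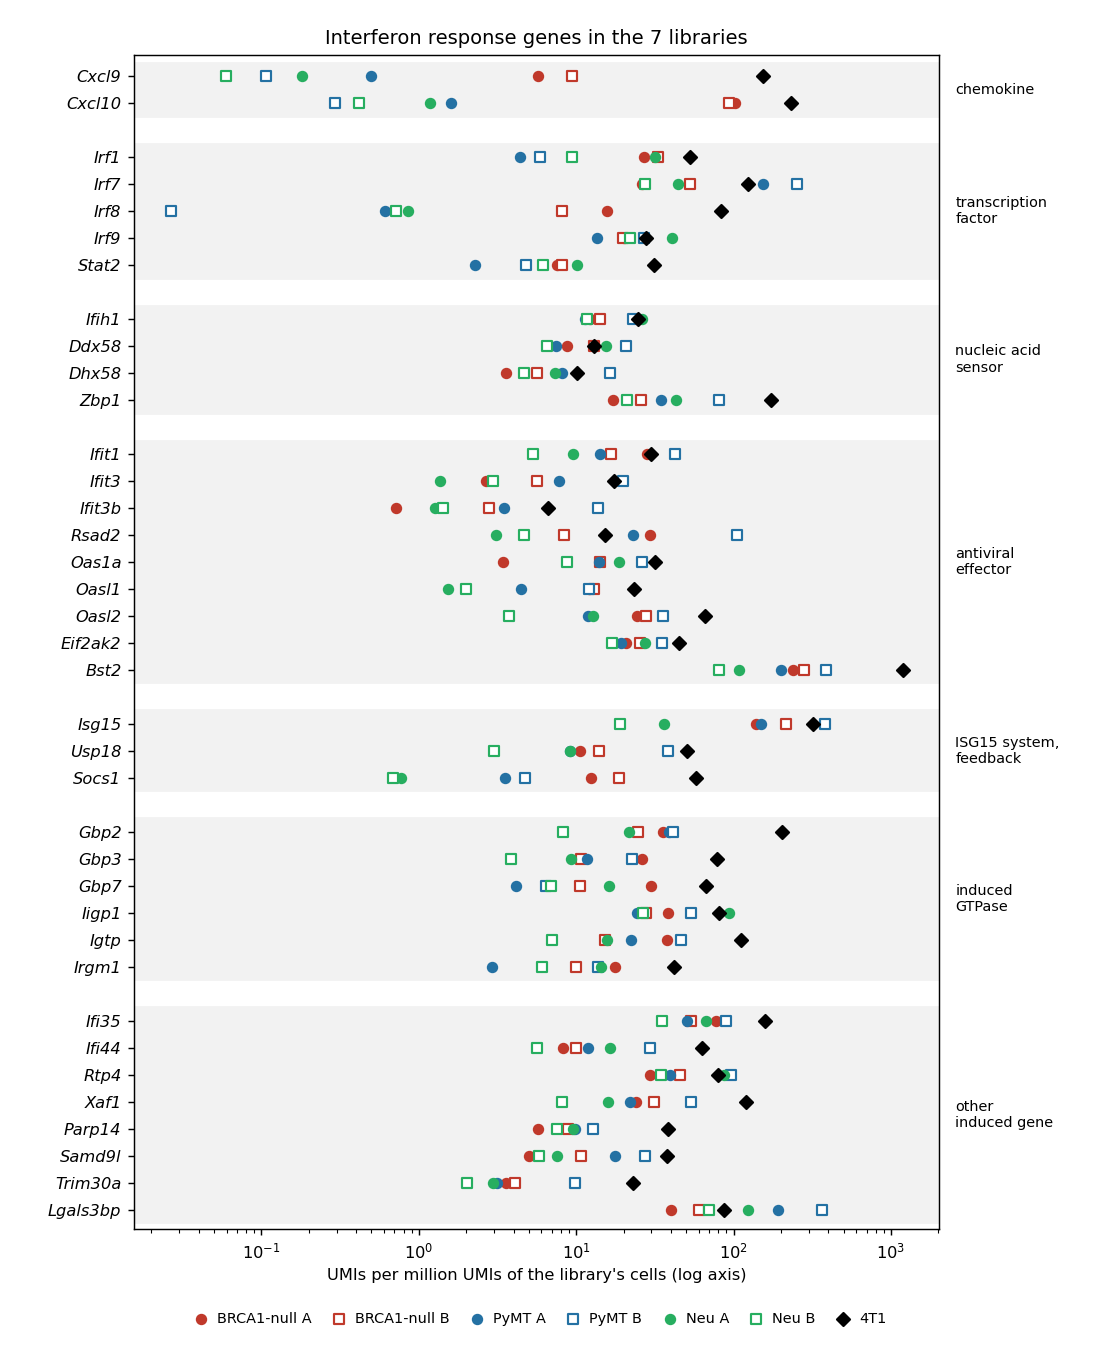
Level of each of the 37 genes in each of the 7 libraries, in CPM on a log axis, with 1 point per library and genes grouped by role. The 4T1 diamond lies to the right of the other libraries for 24 of the 37 genes, and Cxcl9, Cxcl10, Irf8 and Socs1 spread widest, with both BRCA1-null libraries above PyMT and Neu.

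Tumor types were compared on UMIs summed per tumor with edgeR's quasi-likelihood test, each type against the mean of the other types, and a gene is called where the Benjamini-Hochberg adjusted p over 13950 genes is under 0.05. Fold changes are on the log2 scale of this fit, which rescales libraries by TMM. Each type has 2 tumors, the spread rests on 3 residual degrees of freedom, and the 3 comparisons share libraries. All 37 genes passed the filter on low counts, 15 were called in at least 1 comparison and 22 in none. The share of all tested genes called in at least 1 comparison was not counted, so the 15 and 22 have no background. Shares per comparison follow.

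In BRCA1-null tumors the T-cell chemokines Cxcl9 and Cxcl10, the transcription factor Irf8 and the feedback inhibitor Socs1 were higher, and the secreted glycoprotein Lgals3bp was lower. That is 4 of 37 genes called higher, where 17.8% of all tested genes were, and 1 of 37 called lower, where 9.72% were. The median log2 fold change of the 37 was -0.16 against 0.09 over all genes. The share called was therefore below that of all genes in both directions. Leaving out 1 library at a time gave 3 to 5 genes called higher. Irf8 was not called without Neu B (adjusted p = 0.0503, edgeR), and Lgals3bp was not called without Neu A (adjusted p = 0.0524, edgeR). Without BRCA1-null B, 5 genes were called lower.

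Markers of other cell types were also higher in BRCA1-null tumors. All 10 of 15 leukocyte markers that could be tested were called higher, and their summed level was 106 and 114 CPM in BRCA1-null A and B against 1.75 to 8.23 in the PyMT tumors and Neu. Ptprc, which encodes CD45, had 3 and 25 UMIs in BRCA1-null A and B, 1 in PyMT A and 0 in PyMT B and both Neu libraries. All 6 fibroblast markers were called higher, at a summed 390.4 and 1772 CPM against 1.77 to 17.9, and so were 4 of 4 tested endothelial markers (37.3 and 6.10 CPM against 0.743 to 1.82) and 3 of 4 pericyte markers (17.6 and 134 CPM against 0.0552 to 1.13). With the cells that bear leukocyte markers taken out, the 4 genes were still called higher and Lgals3bp lower, at log2 fold changes of 4.68 for Cxcl9, 6.81 for Cxcl10, 4.25 for Irf8 and 2.90 for Socs1 (edgeR, adjusted p of 0.00492, 0.00118, 0.0113 and 0.00249), with an adjusted p of 0.0173 for Lgals3bp (edgeR). The leukocyte list still summed to 27.7 and 51.5 CPM in BRCA1-null A and B after this removal. Fcer1g alone read 2.31 and 45.2 CPM of these sums, so 1 gene made up most of the remainder in BRCA1-null B. In PyMT and Neu the list summed to 1.31 to 3.34. The part of this remainder, and of fibroblasts, pericytes and endothelium, in the fold changes was not tested.

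In PyMT tumors a different group was higher, made of Irf7, Ifit3, Ifit3b, Rsad2, Isg15, Samd9l and Lgals3bp, while Cxcl10 and Irf1 were lower. That is 7 of 37 called higher, where 7.05% of all genes were, and 2 of 37 called lower, where 7.37% were. The median log2 fold change was 1.06 against -0.11 over all genes, and 29 of 37 estimates were above 0. These calls leaned on PyMT B, and the number called over all genes also varied widely with the library left out. Without it 0 of the 37 genes and 119 of all genes were called higher, and 0 of the 37 were called lower. The number called higher was 4 without PyMT A, 3 without Neu A, 1 without Neu B, and 12 and 13 without BRCA1-null A and B. The number called lower was 0 without Neu A, 1 without Neu B and 4 without BRCA1-null B.

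In Neu tumors 8 genes were lower and 0 higher: Cxcl9, Cxcl10, Ifit1, Rsad2, Oasl1, Bst2, Isg15 and Socs1. Over all genes 9.76% were called lower and 13.4% higher. The median log2 fold change was -1.02 against -0.05 over all genes, and 7 of 37 estimates were above 0. With DESeq2 0 genes were called higher as well, and over these 37 genes 16 had an unadjusted edgeR p under 0.05 in either direction. With 1 library left out, the number called lower varied widely, both over these genes and over all genes. The number called lower was 0 without Neu A, 1 without Neu B, 5 without PyMT B and 13 without BRCA1-null A.

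**Figure D2:**
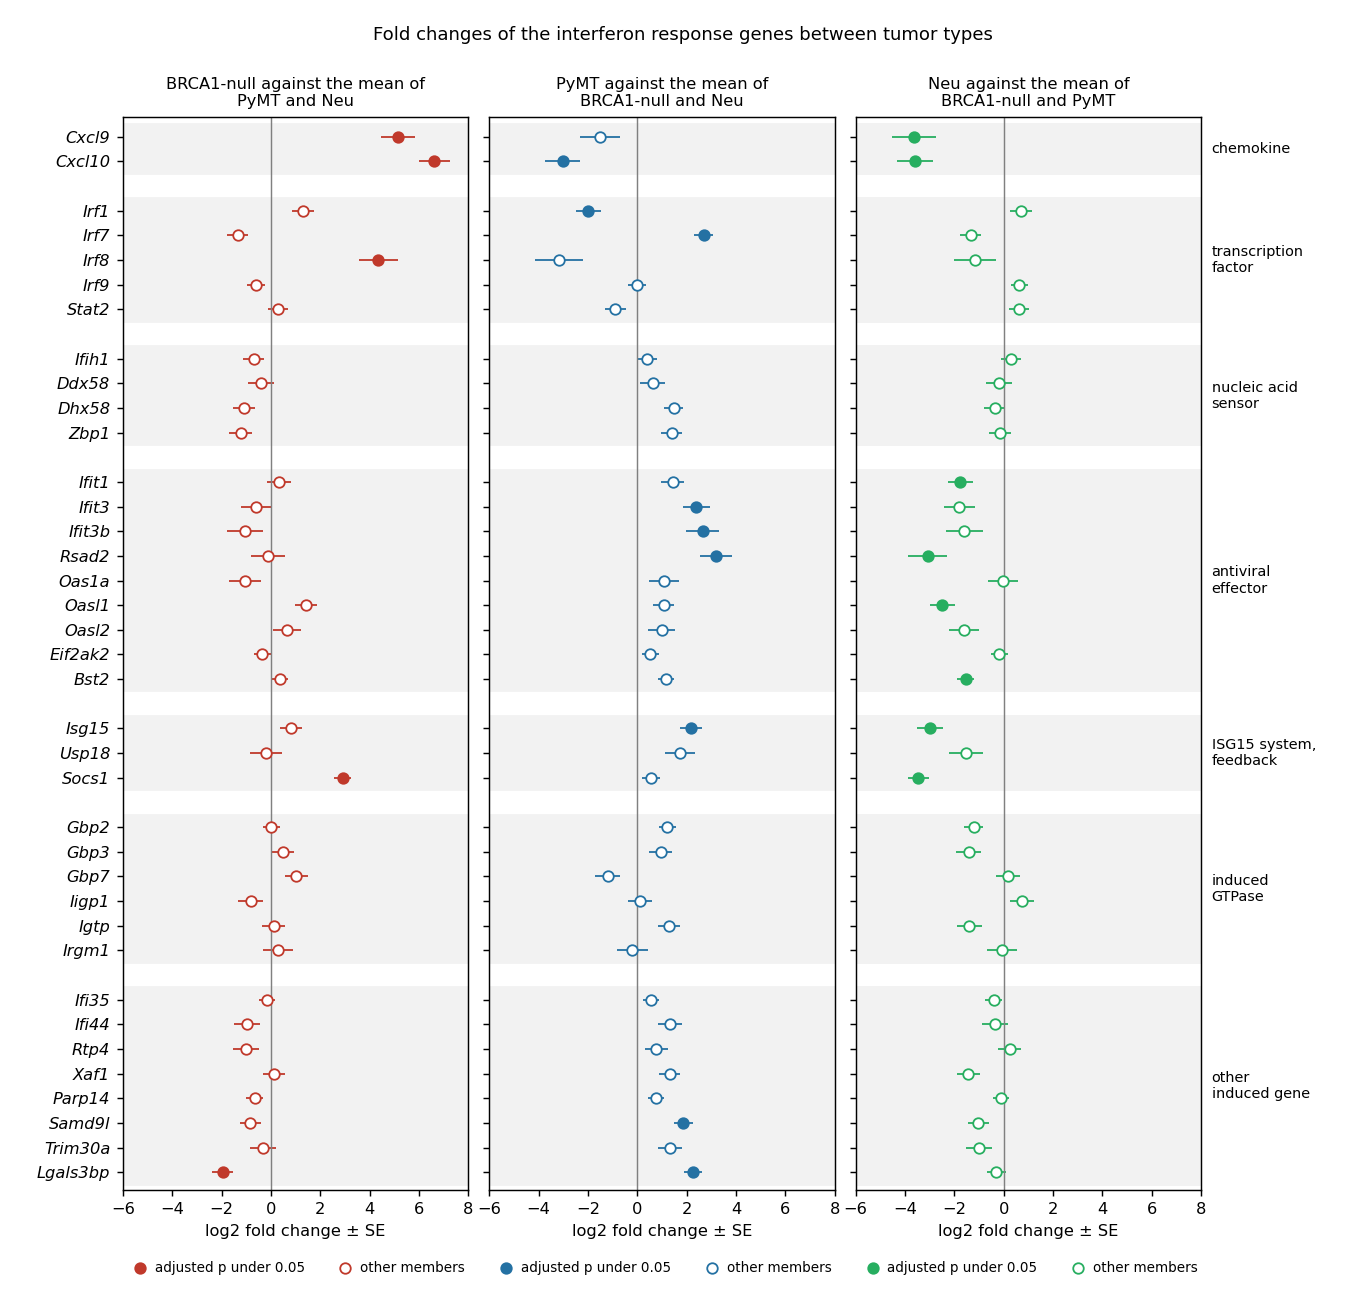
Log2 fold changes of the 37 genes (edgeR, point with bars of 1 SE) in the 3 comparisons, with filled points where the adjusted p is under 0.05 and genes grouped by role. There are 4 filled points above 0 in the BRCA1-null panel, 7 in the PyMT panel and 0 in the Neu panel, where 8 lie below 0, and all 9 antiviral effectors lie above 0 in the PyMT tumors and below 0 in Neu.

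Chemokines separated BRCA1-null tumors from PyMT and Neu. Cxcl9 and Cxcl10 encode ligands of Cxcr3, a chemokine receptor of T cells, and Cxcl9 is known to depend chiefly on interferon gamma. Cxcl10 read 101 and 94.1 CPM in BRCA1-null A and B, 1.60 and 0.292 in the PyMT tumors, 1.18 and 0.416 in Neu and 232 in 4T1. Cxcl9 read 5.74 and 9.42 CPM in BRCA1-null, 0.497 and 0.106 in the PyMT tumors, 0.181 and 0.0594 in Neu and 153 in 4T1. The BRCA1-null libraries lay above all PyMT and Neu libraries for both genes, with no overlap. The log2 fold change in BRCA1-null was 6.61 ± 0.63 (SE) for Cxcl10 and 5.15 ± 0.68 for Cxcl9 (edgeR, adjusted p of 0.00136 and 0.00372). In Neu it was -3.58 ± 0.73 and -3.63 ± 0.88 (edgeR, adjusted p of 0.0174 and 0.0279), and in PyMT -3.03 ± 0.72 for Cxcl10 (edgeR, adjusted p = 0.0381). Since each type was set against the mean of the others, the lower value in Neu and in PyMT is measured against a mean that holds the high BRCA1-null libraries. PyMT and Neu overlapped for both genes.

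In BRCA1-null tumors a minority of cells held the chemokines. In BRCA1-null B at full depth, 353 of 2078 cells held a Cxcl10 UMI, and Epcam was detected in 87.3% of them against 85.9% of the other cells. For Cxcl9 it was detected in 64.7% of the 51 positive cells against 86.7% of the others, and for Irf8 in 64.8% of 105 against 87.3%. Cells with leukocyte markers held 2.196% of the Cxcl10 UMIs of that library but 54.3% of its 278 Cxcl9 UMIs, in 4 cells. In BRCA1-null A they held 9.19% of 566 Cxcl10 UMIs and 12.5% of 32 Cxcl9 UMIs. Of the cells of BRCA1-null B thinned to 3000 UMIs, those with Epcam had 84.8 CPM of Cxcl10 and those with Col3a1 (a fibrillar collagen of fibroblasts and mesenchymal cells) but no Epcam had 119. The same classes had 6.36 and 18.4 CPM of Cxcl9 and 7.30 and 40.9 of Irf8, so both were higher in the class with Col3a1. The 87 cells with neither marker had 3.83 CPM of Cxcl9 (1 UMI), 42.1 of Irf8 and 38.3 of Cxcl10. The corresponding Cxcl10 levels in BRCA1-null A were 20.8 CPM in 64 cells with Epcam, 83.3 in 12 cells with Col3a1 alone and 114 in 146 cells with neither. Epcam was detected in 72.7% of the cells of this library at full depth but in 28.8% of its thinned cells. Its classes without Epcam thus include cells that hold Epcam at full depth. At full depth Epcam was detected in 71.4% of the 49 cells with Cxcl10 and in 73.0% of the others. Cxcl10 was thus found in cells with and without Epcam in both tumors, on 4 UMIs in the cells of BRCA1-null A with Epcam.

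The transcription factors did not move together. Irf8, best known from myeloid and B cells, read 15.8 and 8.10 CPM in BRCA1-null A and B, 0.607 and 0.0265 in the PyMT tumors, 0.859 and 0.713 in Neu and 82.8 in 4T1. Its log2 fold change in BRCA1-null was 4.35 ± 0.78 (edgeR, adjusted p = 0.00914), and cells with leukocyte markers held 27.3% and 23.4% of its UMIs in BRCA1-null A and B. Irf7, the factor that amplifies type I interferon production, read 153 and 254 CPM in PyMT A and B, 25.99 and 52.5 in BRCA1-null, 44.6 and 27.4 in Neu and 124 in 4T1. Both PyMT libraries were above all the others, and the log2 fold change in PyMT was 2.68 ± 0.39 (edgeR, adjusted p = 0.00896), called in all but the fit without PyMT B (adjusted p = 0.0824, edgeR).

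Irf1, the early factor induced through the GAS, went the other way in PyMT. It read 4.42 and 5.89 CPM in PyMT A and B, 26.9 and 32.9 in BRCA1-null, 31.8 and 9.45 in Neu and 52.5 in 4T1. PyMT was lowest without overlap, at a log2 fold change of -1.99 ± 0.50 (edgeR, adjusted p = 0.044), and was not called with the replicate letter as a block (adjusted p = 0.0611, edgeR). Irf9 and Stat2, which carry the type I signal to the ISRE, were called in no comparison and ran from 13.6 to 40.6 and from 2.26 to 10.1 CPM over the 6 libraries. Irf7, whose promoter window was matched, had neither core in it.

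The nucleic acid sensors were called in no comparison. Ifih1, Ddx58 and Dhx58 encode the cytosolic RNA sensors MDA5, RIG-I and LGP2, and Zbp1 senses Z-form nucleic acid. All 4 had estimates below 0 in BRCA1-null and above 0 in the PyMT tumors. The lowest adjusted p among them was that of Dhx58 in the PyMT tumors, at a log2 fold change of 1.47 ± 0.40 (edgeR, adjusted p = 0.0543), with 8.17 and 16.4 CPM in PyMT A and B and 3.58 to 7.32 in BRCA1-null and Neu.

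Of the 9 antiviral effectors 3 were higher in PyMT and 4 lower in Neu, with Rsad2 called in both comparisons. PyMT was not tested against Neu directly. Rsad2, which encodes viperin, read 22.8 and 105 CPM in PyMT A and B, 29.2 and 8.40 in BRCA1-null, 3.07 and 4.66 in Neu and 15.3 in 4T1. Its log2 fold change was 3.20 ± 0.65 in the PyMT tumors and -3.07 ± 0.79 in Neu (edgeR, adjusted p of 0.0238 and 0.0342). PyMT A lay below BRCA1-null A, where 0.450% of the thinned cells held at least 50% of the Rsad2 UMIs, so PyMT and BRCA1-null overlapped, whereas Neu was lowest in both tumors.

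Ifit3 and Ifit3b, near-identical neighbors on chromosome 19 whose reads can be split between them, encode RNA-binding proteins of the IFIT family. Ifit3 read 7.78 and 19.8 CPM in PyMT, 2.69 and 5.66 in BRCA1-null, 1.36 and 2.94 in Neu and 17.5 in 4T1. Ifit3b read 3.48 and 13.8 in the PyMT tumors, 0.717 and 2.81 in BRCA1-null, 1.27 and 1.43 in Neu and 6.63 in 4T1. Among the 3 tumor types PyMT was highest for both without overlap, at log2 fold changes of 2.40 ± 0.55 and 2.65 ± 0.67 (edgeR, adjusted p of 0.0347 and 0.0431). Ifit1, which binds RNA that lacks the host cap, read 9.54 and 5.29 CPM in Neu, 28.3 and 16.7 in BRCA1-null, 14.2 and 42.7 in the PyMT tumors and 30.0 in 4T1. It was lowest in Neu, at -1.76 ± 0.51 (edgeR, adjusted p = 0.0498), and was not called with the replicate letter as a block (adjusted p = 0.0706, edgeR).

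Bst2, which encodes tetherin, a membrane protein that holds budding virions, read 237 and 280.1 CPM in BRCA1-null, 201 and 385 in the PyMT tumors, 108 and 80.7 in Neu and 1183 in 4T1. Neu was lowest in both tumors, at a log2 fold change of -1.53 ± 0.35 (edgeR, adjusted p = 0.0227). Oasl1, a relative of the oligoadenylate synthetases, read 1.54 and 1.99 CPM in Neu, 12.01 and 13.0 in BRCA1-null, 4.47 and 12.02 in the PyMT tumors and 23.3 in 4T1. Its log2 fold change in Neu was -2.49 ± 0.51 (edgeR, adjusted p = 0.0175). Oas1a, Oasl2 and Eif2ak2, the last of which encodes the kinase PKR, were called in no comparison and ran from 3.41 to 35.5 CPM over the 6 libraries.

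Isg15, a ubiquitin-like protein joined to others, was called in the same 2 comparisons as Rsad2. It read 149 and 383 CPM in PyMT A and B, 138 and 216 in BRCA1-null, 36.3 and 19.0 in Neu and 319 in 4T1. Its log2 fold change was 2.19 ± 0.44 in the PyMT tumors and -2.99 ± 0.54 in Neu (edgeR, adjusted p of 0.0227 and 0.0113). PyMT A lay between the BRCA1-null tumors, so only Neu stood clear of the other types in both tumors. Usp18, which removes Isg15 from proteins and blocks the type I receptor, was called in no comparison, from 3 CPM in Neu B to 38.3 in PyMT B.

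Socs1, which inhibits the Jak kinases, followed the chemokines instead. It read 12.4 and 18.6 CPM in BRCA1-null A and B, 3.53 and 4.75 in the PyMT tumors, 0.768 and 0.683 in Neu and 57.5 in 4T1. The 3 tumor types did not overlap. The log2 fold change was 2.90 ± 0.35 in BRCA1-null and -3.45 ± 0.43 in Neu (edgeR, adjusted p of 0.00274 and 0.00414), and cells with leukocyte markers held 27.5% and 6% of its UMIs in BRCA1-null A and B. In BRCA1-null it was called in every fit tried, as were Cxcl9 and Cxcl10, with adjusted p of at most 0.0211, 0.0267 and 0.0127 (edgeR or DESeq2).

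The interferon-induced GTPases were called in no comparison. Gbp2, Gbp3 and Gbp7 are guanylate-binding proteins and Iigp1, Igtp and Irgm1 are immunity-related GTPases, 2 families that attack the vacuoles of intracellular pathogens and whose members resemble each other, so reads can be split between copies. Gbp2 read 35.5 and 24.8 CPM in BRCA1-null, 39.0 and 40.9 in the PyMT tumors and 21.7 and 8.29 in Neu. Iigp1 peaked in Neu A at 93.2 CPM, against 26.7 in Neu B and 24.3 to 53.4 elsewhere among the 6 libraries, so the Neu tumors overlapped the other types. The other 4 ran from 2.92 to 46.3 CPM.

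Of the other induced genes, Lgals3bp was called in 2 comparisons. It read 190.01 and 366 CPM in PyMT A and B, 124 and 69.7 in Neu, 39.97 and 59.95 in BRCA1-null and 86.5 in 4T1, and the 3 tumor types did not overlap. The log2 fold change was 2.26 ± 0.37 in the PyMT tumors and -1.96 ± 0.42 in BRCA1-null (edgeR, adjusted p of 0.0124 and 0.0159). Samd9l, a restriction factor that inhibits protein synthesis, read 17.6 and 27.4 CPM in PyMT, 5.02 and 10.8 in BRCA1-null, 7.502 and 5.82 in Neu and 37.8 in 4T1. PyMT was highest among the types without overlap, at 1.86 ± 0.39 (edgeR, adjusted p = 0.0264). Ifi35, Ifi44, Rtp4, Xaf1, Parp14 and Trim30a were called in no comparison, and all 6 had estimates above 0 in the PyMT tumors.

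The 4T1 tumor had the highest level of 24 of the 37 genes, where 25.01% of the 11225 genes with at least 5 CPM in a library were highest there. For 16 of the 37, 4T1 was at least 2-fold above the highest of the other 6 libraries, where 5.55% of all these genes were, and for 0 of the 37 it was at least 2-fold below the lowest, where 6.08% were. These are values of 1 tumor, with no replicate and no test, and its strain, its line and its GFP vector cannot be told apart, while both PyMT tumors were transplants too. With cells that bear leukocyte markers removed 15 of the 37 genes were above at 2-fold, where 634 of all 11188 genes were. At 3-fold 6 of the 37 were above, where 300 of all 11225 genes were.

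The genes past the 2-fold mark in 4T1 came from every role. Cxcl9, at 153 CPM, was 16.3 times the next highest library (BRCA1-null B) and Cxcl10 2.28 times (BRCA1-null A). Irf8 was 5.25 times and Stat2 3.09 times the next highest. Gbp2, at 203 CPM, was 4.95 times PyMT B, and Gbp3, Igtp, Irgm1 and Gbp7 were 2.99, 2.39, 2.37 and 2.25 times the next highest, so 5 of the 6 GTPases passed. Bst2 and Socs1 were 3.08 times the next highest library, and Zbp1, Ifi44, Xaf1, Parp14 and Trim30a were 2.13 to 2.96 times. The RNA sensors and the 7 genes called higher in PyMT did not pass. Rsad2, Lgals3bp, Ifit3b and Irf7 were 0.145, 0.236, 0.482 and 0.487 times PyMT B, and Ddx58 and Dhx58 were 0.625 and 0.619 times PyMT B.

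In 4T1 the chemokines were held by many cells, with 527 of 1751 cells holding a Cxcl9 UMI and 533 a Cxcl10 UMI. Cells with leukocyte markers held 1.36% and 3.06% of these UMIs, and Epcam was detected in 98.7% and 97.9% of the positive cells against 96.7% and 97.0% of the rest. The leukocyte list summed to 16.8 CPM in 4T1, and Ptprc had 2 UMIs.

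Cells differ in depth between libraries, so shares of cells were taken after each cell was thinned to 3000 UMIs, which left out 694 shallower cells. The share of cells with UMIs of at least 5 of the 37 genes was 63.9% in 4T1 (exact 95% interval 61.5 to 66.2) and 36.3% in PyMT B (34.1 to 38.6). It was 13.5% and 16.9% in BRCA1-null A and B, 12.5% in PyMT A, 11.6% in Neu A and 3.18% in Neu B. The intervals cover counting error only, and the gap between the tumors of PyMT and of Neu was far wider than the intervals. Without thinning the shares were 93.0% in 4T1, 91.3% in PyMT B, 73.1% and 50.9% in BRCA1-null, 42.2% in PyMT A, and 52.9% and 44.9% in Neu. The threshold falls in a continuous range, with 4 genes found in 231 cells of 4T1 and 254 of PyMT B, and 5 in 205 and 193.

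**Figure D3:**
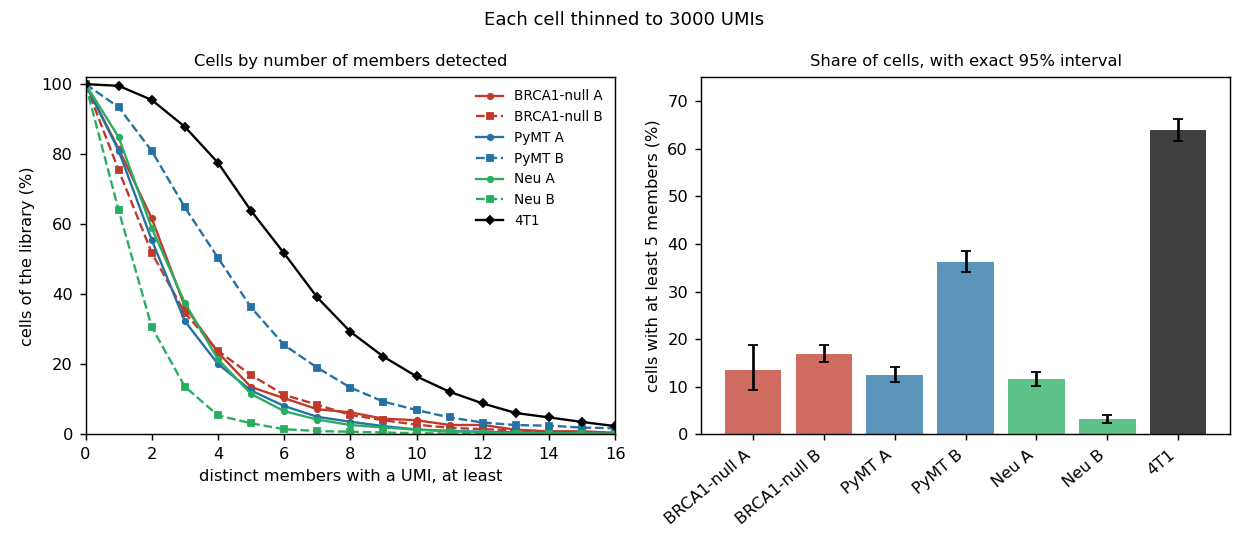
Left, percent of cells of each library (y axis) with UMIs of at least the number of distinct interferon genes on the x axis; right, percent of cells with at least 5, with bars for the exact 95% interval, all at 3000 UMIs per cell. The 4T1 curve lies highest at 63.9% for 5 genes, PyMT B follows at 36.3% and Neu B lies lowest at 3.18%.

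Shares of cells for single genes were ordered much like the levels, with exceptions between neighbors. Isg15 was detected in 41.1% of thinned PyMT B cells and 18.7% of PyMT A, in 23.0% and 25.6% of BRCA1-null A and B, in 8% and 3.13% of Neu A and B and in 42.7% of 4T1 cells. PyMT A had a higher Isg15 level than BRCA1-null A but a lower share, and so had PyMT B against 4T1. Bst2 was detected in 92.0% of 4T1 cells and in 18.6% to 55.9% elsewhere. Irf7 was detected in 26.2% and 41.4% of PyMT cells and 26.9% of 4T1, against 5.95% to 10.9% in BRCA1-null and Neu.

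Cxcl10 was detected in 9.01% and 8.73% of BRCA1-null cells and 18.0% of 4T1, against 0.433% and 0.0557% in the PyMT tumors and 0.289% and 0.154% in Neu. The macrophage gene C1qa, which tumor cells should lack, was detected in 0.325% and 0.111% of PyMT cells and 0.434% and 0.0513% of Neu cells. The PyMT and Neu shares of Cxcl10 were likewise low and are not read as expression. The part of free RNA in them was not tested. In BRCA1-null B and 4T1 the C1qa share was 0.579% and 0.890%, under the Cxcl10 share, and in BRCA1-null A it was 4.05%. Cxcl9 was detected in 0 of 1794 thinned PyMT B cells, where 3 counts of the total allow a share of cells with a UMI of up to 0.167%, and 3 of the 1842 cells held it at full depth. Cxcl9 was detected in 16.2% of 4T1 cells, with 1.80% and 1.37% in BRCA1-null A and B. The 1.80% of BRCA1-null A lay under the C1qa share of that library, so it is not read as expression either. Median depth per cell before thinning was 8609 to 19410.5 UMIs over the libraries.

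Within a library, the genes varied together from cell to cell, weakly for most pairs. Pearson's r of log2(thinned UMIs + 1) had a median of 0.0835 over 630 pairs in BRCA1-null B, 0.0621 and 0.108 in PyMT A and B, 0.0456 and 0.0472 in Neu A and B and 0.0714 in 4T1, counting genes seen in at least 20 cells. In BRCA1-null A, where 8 genes were seen in enough cells, it was 0.128 over 28 pairs. For the ligands, receptors, kinases and sensing genes of the same pathway the median lay between -0.0004 and 0.0075, and for 9 proliferation genes it lay between 0.206 and 0.386 in the 6 libraries with more than 1 such gene. These cells share a library and are not replicates, and with counts this sparse r is a description.

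Of the 666 pairs, 21 had both genes seen in at least 20 cells of every library. These 21 were led by Bst2 with Isg15, at a median r of 0.252 over libraries and a range of 0.122 to 0.368. Iigp1 with Igtp followed at 0.236, Isg15 with Igtp at 0.220, Isg15 with Iigp1 at 0.209 and Zbp1 with Isg15 at 0.180. Pairs of antiviral effectors went higher where they could be measured, and were chosen after their values were seen. Ifit1 with Rsad2 reached 0.560 in PyMT B, 0.535 in 4T1 and 0.392 in PyMT A, and 0.105 in BRCA1-null B. Ifit1 with Ifit3, both with paired ISRE cores in their promoters, reached 0.498 in 4T1, 0.458 in PyMT B, 0.445 in PyMT A and 0.360 in BRCA1-null B.

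Shares of co-detection show the same in cells. In PyMT B, Isg15 was detected in 58.3% of the 743 cells with Irf7 and in 28.9% of those without, and Rsad2 in 12.1% of the 737 cells with Isg15 and 1.61% of those without. In 4T1, Cxcl10 was detected in 40.3% of the 273 cells with Cxcl9 and 13.7% of those without. In BRCA1-null B it was detected in 26.9% of 26 cells with Cxcl9 (exact 95% interval 11.6 to 47.8) and 8.48% of the rest.

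Cells with at least 5 of the genes were then set beside the other cells of their library, on genes that did not choose them. The 46 other interferon-induced genes listed further on were higher in these cells in all 7 libraries, at 1.43 to 2.201 times the mean UMIs. The 25 ligand, receptor, kinase and sensing genes were also higher in all 7, at 1.10 to 1.55 times. The MHC class I genes H2-K1, H2-D1 and B2m, which present peptides to T cells, were 2.47 times as high in BRCA1-null B, 1.93 in BRCA1-null A and 1.36 to 1.86 in the PyMT tumors and Neu, but 1.05 times in 4T1, where both sets of cells held much of them (47.3 and 45.0 UMIs per cell). Epithelial markers stood at 0.946 to 1.19 times. In BRCA1-null A, with 30 such cells, fibroblast markers were 3.74 times as high, endothelial markers 34.6 times and pericyte markers 28.8 times, the last 2 on 0.0260 and 0.0104 UMIs per cell in the other cells, and leukocyte markers 1.28 times. In BRCA1-null B leukocyte markers were 2.22 times, endothelial 3.21 times, pericyte 2.90 times and MHC class II genes 2.57 times as high, and fibroblast markers 0.884 times. In the PyMT, Neu and 4T1 libraries leukocyte markers averaged at most 0.0567 UMIs per cell in either set. MHC class II genes were 21.1 times as high in Neu B, at 0.290 against 0.0138 UMIs per cell over 62 cells, and 1.07 to 1.49 times in the other PyMT and Neu libraries and 4T1. The part of these cell types in the ratios was not tested.

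Proliferation genes took opposite directions. The 9 genes (such as Mki67 and Top2a) had 1.61 times the mean UMIs in such cells of 4T1, and Mki67 was detected in 9.39% against 4.27% of cells. In the other 6 libraries the same list was lower in these cells, at 0.164 times in Neu B, 0.368 in Neu A, 0.403 in BRCA1-null A, 0.522 in PyMT B, 0.751 in BRCA1-null B and 0.879 in PyMT A. Neu B and BRCA1-null A had 62 and 30 such cells, and the share of cells with Mki67 in BRCA1-null B was 4.97% against 3.93%, against the direction of its list. The share of cells with any of the 9 genes in PyMT A, at 4.74% against 4.39%, also went against the list's mean. The ratios of Neu B and Neu A rest on means of 0.0484 against 0.296 and 0.0625 against 0.170 UMIs per cell. Any of the 9 genes was detected in 4.84% against 8.59% of Neu B cells and 4.58% against 5.94% of Neu A cells. No test was made, since each value is 1 library.

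**Figure D4:**
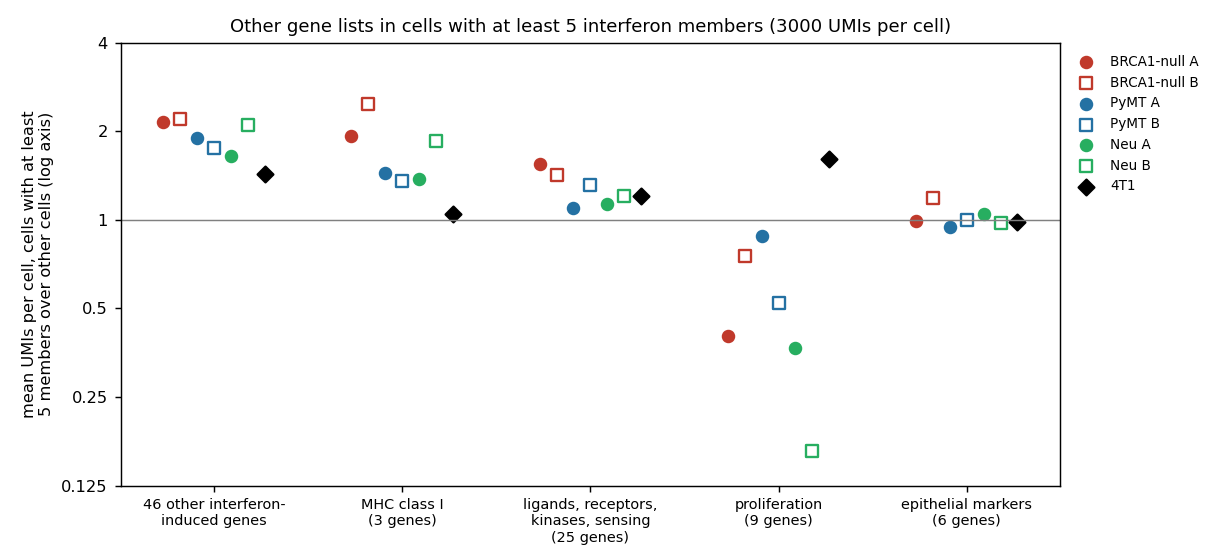
Ratio of mean UMIs per cell between cells with at least 5 of the 37 interferon genes and the other cells of the same library, on a log axis, for 5 gene lists and 7 libraries, at 3000 UMIs per cell. The other interferon-induced genes, the MHC class I genes and the ligand, receptor, kinase and sensing genes lie above 1 in all libraries. For proliferation only 4T1, at 1.61, lies above 1.

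The genes that start the response were next compared, from a list of 25. The ligand genes on this list, which holds no interferon alpha gene, were almost unseen in all 7 libraries. Leukocytes were gated out by the sort, so ligand RNA in them would be largely missed here. Ifnb1, Ifng, Ifne and Ifnl2 read at most 0.110 CPM and Ifnl3 0, while Ifnk, an epithelial type I interferon, read up to 1.08 CPM (BRCA1-null A). Of the 20 genes of the list that could be tested, 1 was called higher and 2 lower in BRCA1-null, 1 higher and 0 lower in PyMT (4 had an unadjusted edgeR p under 0.05 there), and 1 higher and 1 lower in Neu. Over all genes the shares called higher and lower were 17.8% and 9.72% in BRCA1-null. They were 7.05% and 7.37% in PyMT and 13.4% and 9.76% in Neu.

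Receptors differed between types in single chains. Ifngr2 read 93.8 and 55.3 CPM in PyMT, 17.4 and 27.03 in BRCA1-null and 24.4 and 19.4 in Neu, a log2 fold change in PyMT of 2.00 ± 0.32 (edgeR, adjusted p = 0.0123). Ifngr1, the ligand-binding chain, read 16.9 and 11.9 CPM in Neu and 29.4 to 53.8 in the other types, a log2 fold change in Neu of -1.44 ± 0.33 (edgeR, adjusted p = 0.0233). Il10rb, the shared chain of the receptors for interferon lambda and interleukin 10, read 32.9 and 24.8 CPM in Neu, 17.4 and 15.5 in the PyMT tumors and 4.302 and 8.26 in BRCA1-null, at 1.4835 ± 0.34 in Neu and -1.998 ± 0.39 in BRCA1-null (edgeR, adjusted p of 0.0232 and 0.0116). Ifnar2 was lower in BRCA1-null, at 24.0 and 29.2 CPM against 38.5 to 55.9 (-1.09 ± 0.27, edgeR, adjusted p = 0.0243). Ifngr2, Ifngr1 and the call of Il10rb in Neu were lost without PyMT A or without either Neu library (edgeR, adjusted p of 0.0579 to 0.182), and Ifngr2 and Il10rb also without PyMT B (0.0548 and 0.0895, edgeR). The call of Ifnar2 was lost without any 1 of the PyMT or Neu libraries or BRCA1-null A (0.0507 to 0.0842, edgeR).

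Among the sensing genes, Mb21d1, which encodes the DNA sensor cGAS, was higher in BRCA1-null, at 5.74 and 3.96 CPM against 0.607 to 1.18 in the PyMT tumors and Neu and 14.0 in 4T1. Its log2 fold change was 2.24 ± 0.39 (edgeR, adjusted p = 0.00845). The kinase gene Jak2 was called in no comparison and read 73.2 CPM in 4T1 against 5.06 to 14.7 in the other 6 libraries, the first a value of 1 library.

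Another list of 46 interferon-induced genes, of which 45 were tested, showed how far the picture held outside the 37. In BRCA1-null 5 were higher and 3 lower, in PyMT 9 higher and 0 lower (22 of 45 had an unadjusted edgeR p under 0.05, in either direction), and in Neu 1 higher and 8 lower, with median log2 fold changes of 0.07, 0.88 and -1.10. The list was drawn up with earlier results of these data known and shares the libraries, so it is no independent evidence of direction. In BRCA1-null Ifitm1 (7.59 ± 0.88), the T-cell chemokine Ccl5 (5.29 ± 0.61) and Ifitm3 (1.27 ± 0.29) were higher and Epsti1 (-2.58 ± 0.45) and Ifi27 (-1.75 ± 0.35) lower, edgeR adjusted p of 0.00256 to 0.0198. In PyMT the DNA-binding Ifi204 (4.73 ± 0.65), Epsti1 (2.13 ± 0.37), Oas3 (3.19 ± 0.59), Ifitm3 (1.49 ± 0.29) and Znfx1 (1.66 ± 0.35) were higher, edgeR adjusted p of 0.0078 to 0.0256. In Neu Ifitm3 (-2.76 ± 0.35), Ifi204 (-5.85 ± 0.90), Ccl5 (-5.05 ± 0.80) and Oas3 (-3.53 ± 0.75) were lower, as was Tgtp2, which had 0 UMIs in both Neu libraries and so gets no fold, edgeR adjusted p of 0.00428 to 0.0245. The gene called higher in Neu was Ifi27 (1.17 ± 0.31, edgeR, adjusted p = 0.0357). Ccl5 and Ifitm1 are also made by leukocytes and stroma, whose markers were higher in BRCA1-null as given above.

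The MHC class I genes did not follow the chemokines. All 3 were lower in BRCA1-null, at log2 fold changes of -1.42 to -1.60 (edgeR, adjusted p of 0.0119 to 0.0345), with a summed 2943 and 3859.9 CPM in BRCA1-null A and B against 5434 to 9941 in the PyMT tumors and Neu and 15089 in 4T1.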

How the data were processed

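Single-cell RNA-seq of 7 sorted mouse mammary tumors (10x 3′ chemistry, version 2) was analysed. The files hold unnormalized UMI counts for each gene in each barcode, as deposited, which the authors made with Cell Ranger on an mm10 reference. The submitters' processing notes name Cell Ranger 2.2.0 and 3.0.2 and STAR without a version, and the matrix headers name 3.0.2. An aggregated matrix of all libraries was not used.

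Cells with at least 1000 UMIs, at least 500 genes and under 20% mitochondrial UMIs were kept, and their counts were summed per tumor. The replicate is the tumor: the study calls the 2 tumors of a type independent, though both PyMT tumors come from 1 line. Genes were tested with edgeR 4.0.16 in R 4.3.3 (TMM, filterByExpr, quasi-likelihood fit, Benjamini-Hochberg adjustment over 13950 genes) on the 6 replicated libraries. The 4T1 library was compared without a test. Shares of cells and correlations used cells thinned to 3000 UMIs, with exact 95% intervals that cover counting error only. Cells with leukocyte markers had a Ptprc UMI or UMIs of at least 2 other markers. Doublets were kept, and 78 cells called by Scrublet (scanpy 1.11.5) were removed as an alternative. Scripts were tested on simulated data. DESeq2 1.42.0, other cell filters, a replicate block and leaving out each library were tried as alternatives.

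The members and lists were chosen with earlier results of these data known. Statistics are given for every member with an adjusted p under 0.05 and for members past the 2-fold rule in 4T1. They are also given for up to 5 genes of each other list and comparison by smallest adjusted p. Of the pairs, the 5 with the highest median r among the 21 measured in all 7 libraries are given. Reads of near-identical genes (Ifit3 and Ifit3b, the Gbp, Oas and Irg families) may be split by the counting.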

Additional observations from a re-analysis of the deposited data

How the results depend on the processing

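Of 22 calls of the 37 genes, each recomputed under 16 alternatives, 299 of 352 values stayed called, 53 were lost and 0 changed direction. Without a filter on low counts the BRCA1-null comparison gave 7 higher and 8 lower, PyMT 20 higher and 4 lower, and Neu 17 lower. With DESeq2 there were 3 lower in BRCA1-null, 15 higher in PyMT and 15 lower in Neu. Over all genes, DESeq2 and no filter gave 1482 and 1596 higher and 1838 and 2031 lower in PyMT (984 and 1028 in edgeR with the filter), and 2184 and 2118 lower in Neu (1362). Without doublets 1 gene was lower in PyMT. The replicate letters appear to follow the study's sequencing batches, and the deviations of same-lettered libraries correlated at 0.0618, 0.114 and 0.170. With the letter as a replicate block 2 genes were lower in BRCA1-null and 1 in PyMT, where Irf1 was lost, and Ifit1 was lost in Neu; no other of the 22 calls was lost. Leaving out 1 library at a time, where the lone tumor is assumed to vary like the others, gave 3 to 5 higher and 0 to 5 lower in BRCA1-null, 0 to 13 higher and 0 to 4 lower in PyMT, and 0 to 13 lower in Neu. The numbers called over all genes also varied widely between these leave-out fits. In 4T1, 6 of the 37 genes were above at 3-fold, where 300 of all 11225 genes were. Without thinning, cells with at least 5 genes made up 73.1%, 50.9%, 42.2%, 91.3%, 52.9%, 44.9% and 93.0% of BRCA1-null A and B, PyMT A and B, Neu A and B and 4T1, and the median r was 0.194, 0.149, 0.118, 0.248, 0.0822, 0.146 and 0.159 in the same order. Spearman's rho gave 0.0393 in Neu A and 0.0392 in Neu B. The MHC class II gene H2-Aa, which is no member, was the gene that changed direction: its log2 fold change in BRCA1-null was 1.58 (edgeR, adjusted p = 0.0414) and became -1.25 without cells that bear leukocyte markers (edgeR, adjusted p = 0.188). The causes of these shifts were not tested.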
